A study of Mus musculus with 32 samples.

Results

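Ccr3, Siglecf, Il5ra, Epx, Prg2, Alox15, Serpinb2, Siglecg and Il13 are 9 mouse genes chosen by name, 8 of them because they are expressed by or linked to eosinophils and the last because it encodes a type 2 cytokine. All 9 were found on both array types used in the series, out of 17097 genes with a single symbol on the HT_MG-430_PM chip and 22180 on the Mouse Gene 2.0 ST chip, and each gene was read from its probe set of highest mean signal. The choice was made with measured values of these arrays in view, and which comparison prompted it is not recorded, so the differences and their p-values are given as a description of the members and support nothing further. The question set for them was whether they moved together from array to array within one sorted cell population.

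The 32 arrays measured RNA of tumour-associated macrophages in 12 groups, in 3 experiments that were analysed apart. In the first, CD11b+ cells were enriched with magnetic beads from 3 neuroblastomas that arose in the peritoneum of Th-MYCN transgenic mice and from 3 EG7 thymomas grown from transplanted EG7 lymphoma cells in WT mice. In the second, the same enrichment was applied to EG7 thymomas of 5 Myd88-/- and 5 WT recipients. In the third, cells were sorted by flow cytometry from EG7 thymomas of TNFR1-/- hosts, of Myd88 flox/flox; Tie2-Cre hosts, of hosts with both (TNFR1-/-; Myd88 flox/flox; Tie2-Cre, here the double mutant) and of WT hosts. Each host type gave 2 arrays of population A (CD11b+, Ly6C+, MHCII-, and gated Ly6G-) and 2 arrays of population C (CD11b+, Ly6C-, MHCII+). Tie2-Cre is active in endothelial and haematopoietic cells, so the conditional deletion is not confined to macrophages, and the transplanted EG7 cells do not carry the hosts' mutations. The ages of the animals were not given in the sources used here, nor was it stated whether replicates came from separate animals, so the p-values measure the spread between these arrays. Values are log2 signals normalised by robust multi-array averaging (RMA), and a probe set's signal cannot be compared with that of another.

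Eosinophils are granulocytes that mature under interleukin 5, whose receptor alpha chain is encoded by Il5ra, and that migrate towards eotaxins through the chemokine receptor encoded by Ccr3. Siglecf encodes the sialic acid-binding lectin used as a surface marker of mouse eosinophils and alveolar macrophages, while Siglecg encodes a related inhibitory lectin best known on B cells. Epx and Prg2 encode eosinophil peroxidase and major basic protein, both stored in the granules and transcribed mainly in immature cells. Alox15 encodes the 12/15-lipoxygenase found in eosinophils and resident peritoneal macrophages, Serpinb2 encodes plasminogen activator inhibitor type 2, and Il13 encodes a cytokine of Th2 cells, innate lymphoid cells and granulocytes that signals through STAT6. Surface CD11b is carried by eosinophils as well as by macrophages, monocytes and neutrophils.

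The sequences before the start sites of 4 members are shown because GATA factors direct eosinophil development and the members moved together in the sorted cells. On GRCm38.p6 the RefSeq gene of Ccr3 spans chr9:124017825-124031692, that of Il5ra chr6:106710375-106749037, that of Il13 chr11:53631323-53634702 and that of Alox15 chr11:70344147-70390538, while Siglecf (chr7:43351341-43359475) and Siglecg (chr7:43408192-43418349) are neighbours on 1 chromosome. RefSeq start sites were listed for 7 of the 9 members. The windows hold 250 bases, and capitals mark AGATAA. They are those of 3 members with a GATA motif (AGATAA, searched on both strands) and that of Siglecf, which has none of the motifs searched. They lie at chr9:124021721-124021970, + strand, at chr6:106749038-106749287, - strand, at chr11:53634703-53634952, - strand, and at chr7:43351091-43351340, + strand.
Ccr3: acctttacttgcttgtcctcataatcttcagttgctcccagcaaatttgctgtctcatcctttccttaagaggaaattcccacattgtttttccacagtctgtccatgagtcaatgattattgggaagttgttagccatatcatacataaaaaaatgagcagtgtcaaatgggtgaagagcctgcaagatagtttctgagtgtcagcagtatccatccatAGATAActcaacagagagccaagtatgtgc
Il5ra: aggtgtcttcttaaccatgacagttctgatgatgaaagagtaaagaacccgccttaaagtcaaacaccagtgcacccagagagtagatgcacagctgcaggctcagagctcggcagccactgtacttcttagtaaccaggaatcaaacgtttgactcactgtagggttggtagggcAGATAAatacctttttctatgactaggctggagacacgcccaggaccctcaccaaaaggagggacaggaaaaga
Il13: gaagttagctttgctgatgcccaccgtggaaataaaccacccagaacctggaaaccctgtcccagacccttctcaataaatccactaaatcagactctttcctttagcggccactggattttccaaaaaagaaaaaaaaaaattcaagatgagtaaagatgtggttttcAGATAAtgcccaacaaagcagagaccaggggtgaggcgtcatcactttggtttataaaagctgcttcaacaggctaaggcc
Siglecf: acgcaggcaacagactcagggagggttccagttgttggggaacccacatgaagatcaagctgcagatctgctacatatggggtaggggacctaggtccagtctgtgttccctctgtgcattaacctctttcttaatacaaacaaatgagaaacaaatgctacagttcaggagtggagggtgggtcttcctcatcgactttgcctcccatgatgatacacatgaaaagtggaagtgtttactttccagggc
AGATAA began 30 bases before the start site in Ccr3, 74 in Il5ra and 81 in Il13. It also stood 41 bases before 1 of the listed starts of Serpinb2, whose windows are not shown. It was present in 11.2% of the 32851 promoter windows of all genes, each reaching from 250 bases before to 50 bases after a start site. The STAT6 motif, TTC and GAA with 4 bases between them, was present in 6.95% of all windows and in those of Il5ra and Epx, and the same with 3 bases between them in 8.3% of all windows and in Serpinb2. A match describes these letters only.

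The members were higher in population A than in population C. Ccr3 had 9.66 and 10.4 in A cells of TNFR1-/- hosts, 9.77 and 9.2 in those of Myd88 flox/flox; Tie2-Cre hosts, 10.19 and 8.94 in those of double-mutant hosts and 7.84 and 6.76 in those of WT hosts, against 4.45 to 5.64 over the 8 arrays of population C. The 40th percentile of all probe sets, used as the lower bound of a measured signal, lay between 5.00 and 5.14 on the A arrays and between 4.92 and 5.01 on the C arrays, so Ccr3 was around that bound in C. On the 8 A arrays, 0 values of the 9 members were under it. Alox15 had 11.91 and 12.57, 12.18 and 11.55, 12.54 and 11.33, and 10.77 and 9.6 in A cells of the same hosts in the same order, against 5.74 to 8.13 in C. Neither gene overlapped between the populations. Averaged over the 4 host types, Alox15 was 27.3-fold higher in A (a log2 difference of 4.77 ± 0.22, SE) and Ccr3 18.3-fold (4.19 ± 0.21), ranks 2 and 4 among the rises of all 16524 genes tested. All 9 members passed limma's test in this direction, as did 11.1% of all genes tested (Benjamini-Hochberg adjusted p under 0.05).

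The other members separated the populations to different degrees. Siglecf ranged from 7 to 10.26 in A and from 5.01 to 6.24 in C, a log2 difference of 3.24 ± 0.28. Serpinb2 ranged from 7.12 to 10.87 in A against 5.51 to 6.54 in C (3.41 ± 0.25), Siglecg from 6.88 to 10.06 against 5.57 to 6.26 (2.72 ± 0.26), and Il13 from 7.48 to 11.13 against 6.47 to 6.95 (2.76 ± 0.27). Il5ra ranged from 5.28 to 7.73 in A and from 4.23 to 5.05 in C, where 5 of 8 arrays were under the lower bound. The granule protein genes differed least: Prg2 by 1.27 ± 0.26, with 5.74 to 8.51 in A and 5.18 to 5.79 in C, and Epx by 0.56 ± 0.11, with 5.4 to 6.05 in A and 5.04 to 5.34 in C. For 8 of the 9 members every A array exceeded every C array, which held for 1.12% of all genes tested, and Prg2 was the exception.

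Within single host types, 8 members were called higher in A in TNFR1-/- hosts (2.48% of all genes), 7 in Myd88 flox/flox; Tie2-Cre hosts (1.03%) and 7 in double-mutant hosts (1.74%). In Myd88 flox/flox; Tie2-Cre hosts the count was 2 without array 1 of the A cells, 4 without array 1 and 3 without array 2 of the C cells. In WT hosts alone, 4 members were called higher in A than in C, where 3.53% of all genes were. These were Alox15 (a log2 difference of 4.18), Ccr3 (2.56 ± 0.42), Siglecf (2.22 ± 0.56) and Serpinb2 (1.70 ± 0.50). Il13 differed by 0.96 ± 0.54 (limma adjusted p = 0.253) and Siglecg by 1.12 ± 0.52 (adjusted p = 0.167). Without array 1 of the A cells, or without array 1 of the C cells, 2 members were called.

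**Figure D1:**
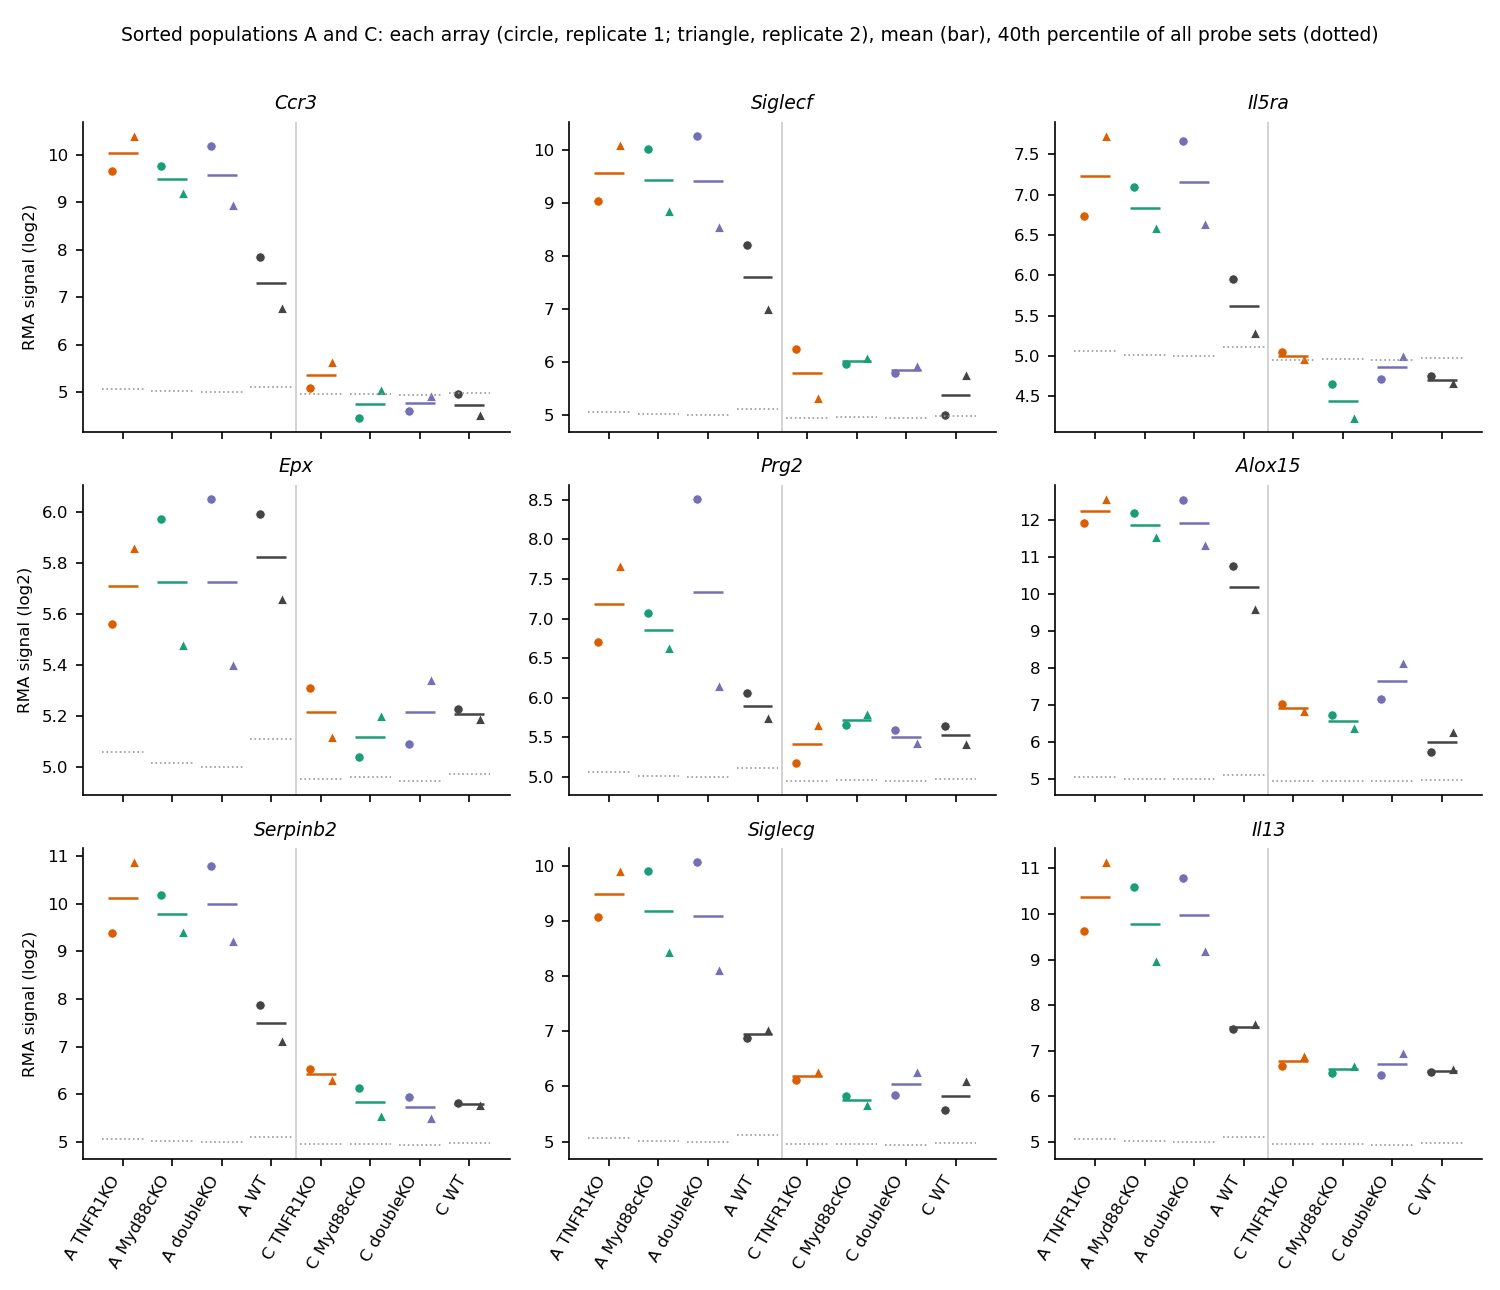
Log2 RMA signal of each member on the 16 sorted arrays, populations A (left of the grey line) and C, by host; KO marks germline TNFR1-/-, cKO marks Myd88 flox/flox; Tie2-Cre and doubleKO both. Circles and triangles are the 2 arrays of a group, bars their mean and dotted lines the 40th percentile of all probe sets. Except for Epx, every A array of a mutant host lies above both A arrays of WT hosts.

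The targeted genes were read first as a check of the hosts. Myd88 had 7.70 to 8.32 in the 4 A arrays with the conditional deletion, against 9.46 to 10.03 in the other 4 A arrays, and was lower in 5 Myd88-/- arrays (7.47 to 7.83) than in 5 WT arrays (8.11 to 8.57). In C cells it had 7.49 and 7.53 in Myd88 flox/flox; Tie2-Cre hosts and 8.76 and 7.97 in double-mutant hosts, against 9.78 and 9.22 in WT hosts. The double-mutant difference in C was -1.135 ± 0.27 and was not called (limma adjusted p = 0.129). Tnfrsf1a had 7.51 to 8.20 in A arrays with the TNFR1 deletion, against 7.95 to 8.30 in those without, and where its probes lie relative to the deleted part was not determined, so it checks nothing.

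Within population A, most members were higher in each mutant host than in WT hosts. Il13 had 9.63 and 11.13 in TNFR1-/- hosts, 10.58 and 8.96 in Myd88 flox/flox; Tie2-Cre hosts and 10.78 and 9.18 in double-mutant hosts, against 7.48 and 7.58 in WT hosts. All 6 mutant arrays lay above both WT arrays, and the 2 arrays of each mutant host lay 1.5 to 1.62 log2 units apart while the WT pair differed by 0.10. Il13 rose 7.21-fold in TNFR1-/- hosts (a log2 difference of 2.85 ± 0.54, limma adjusted p = 0.0369), the largest rise of all genes tested in that comparison, 4.72-fold in Myd88 flox/flox; Tie2-Cre hosts (2.24 ± 0.54, adjusted p = 0.0414) and 5.46-fold in double-mutant hosts (2.45 ± 0.54, adjusted p = 0.0267).

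Ccr3, whose values are given above, rose by 2.73 ± 0.42 in TNFR1-/- hosts (adjusted p = 0.0206), by 2.19 ± 0.42 in Myd88 flox/flox; Tie2-Cre hosts (adjusted p = 0.0188) and by 2.27 ± 0.42 in double-mutant hosts (adjusted p = 0.0165). Serpinb2 had 9.39 and 10.87, 10.19 and 9.4, and 10.8 and 9.21 in the same mutant hosts, against 7.87 and 7.12 in WT hosts, and rose by 2.64, 2.30 and 2.51 (SE 0.50). Siglecg had 9.06 and 9.91, 9.9 and 8.44, and 10.06 and 8.1, against 6.88 and 7.03, and rose by 2.53, 2.22 and 2.13 (SE 0.52). These 4 genes were called in each of the 3 comparisons, which share the 2 WT arrays and are therefore not independent. In total 4 members were called in TNFR1-/- hosts, where 0.315% of all genes were called higher, 4 in Myd88 flox/flox; Tie2-Cre hosts, where 2.47% were, and 6 in double-mutant hosts, where 4.33% were.

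The receptor and lectin genes used to recognise eosinophils followed with smaller or less certain differences. Il5ra had 6.73 and 7.73, 7.09 and 6.59, and 7.67 and 6.64 in the mutant hosts, against 5.95 and 5.28 in WT hosts, and was called in double-mutant hosts (1.54 ± 0.35, adjusted p = 0.0299) while its adjusted p was 0.051 in TNFR1-/- and 0.0694 in Myd88 flox/flox; Tie2-Cre hosts. Alox15 was likewise called in double-mutant hosts (1.75 ± 0.44, adjusted p = 0.0379), with log2 differences of 2.06 and 1.68 in the others (adjusted p = 0.051 and 0.0546). Siglecf had 9.04 and 10.09, 10.01 and 8.85, and 10.26 and 8.55, against 8.2 and 7. Its mutant arrays lay above both WT arrays, yet it was called in none of the 3 comparisons (log2 differences of 1.97, 1.83 and 1.81, adjusted p = 0.0886, 0.0832 and 0.0688).

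The granule protein genes stood apart from each other. Prg2 had 6.7 and 7.66, 7.07 and 6.63, and 8.51 and 6.15 in the mutant hosts, against 6.06 and 5.74 in WT hosts, with log2 differences between 0.95 and 1.43 and none called. Epx had 5.56 and 5.86, 5.97 and 5.48, and 6.05 and 5.4, against 5.99 and 5.66, so its mutant and WT arrays overlapped. Its log2 difference lay between -0.12 and -0.10, and the 95% interval in double-mutant hosts ran from -0.58 to 0.38. Apart from Epx, each of the members had all 6 mutant arrays above both WT arrays, 8 of 9 members against 8.62% of all genes tested.

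**Figure D2:**
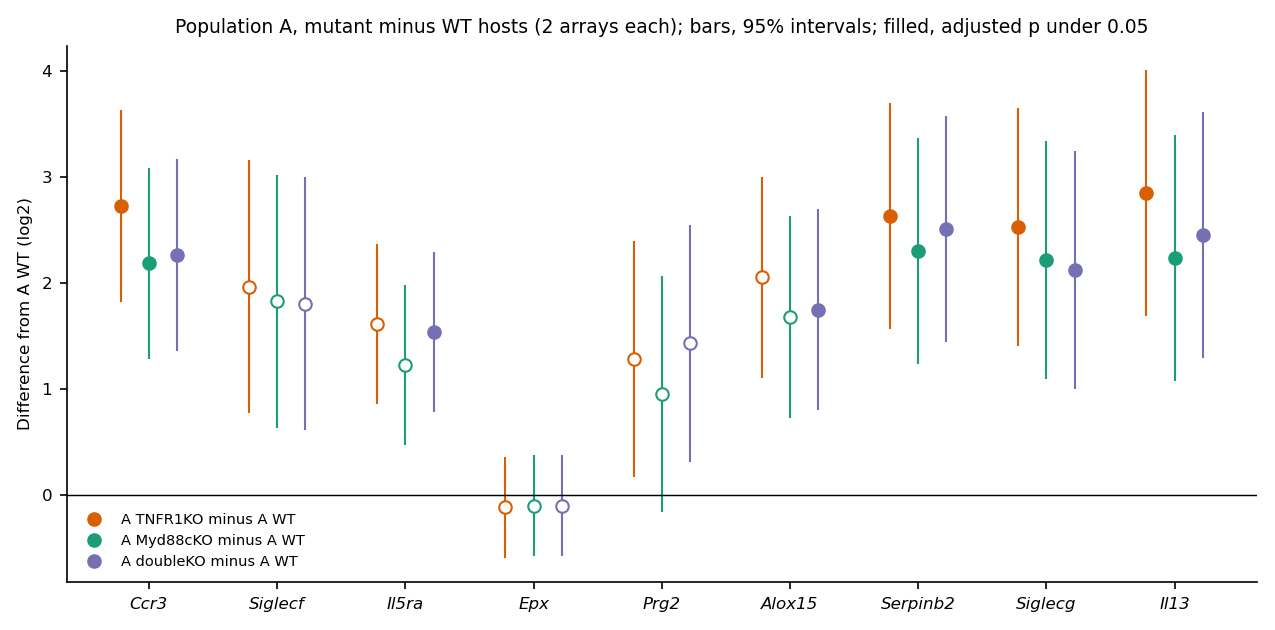
Log2 difference of each member between population A of each mutant host type (2 arrays) and of WT hosts (2 arrays), from limma; bars are 95% intervals, filled points have an adjusted p under 0.05. Epx lies between -0.12 and -0.10, while Ccr3, Serpinb2, Siglecg and Il13 are filled in each.

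The calls within population A rested on few arrays. When the fit held only the 4 arrays compared, with the spread estimated from 2 pairs, 0 members were called in each of the 3 comparisons. The main fit used 1 spread per gene for A and C arrays alike. For Il13, the 2 arrays of each mutant host in A lay 1.5 to 1.62 apart, while the 8 C arrays lay between 6.47 and 6.95. For such a gene the SE and adjusted p of the main fit may be too small in A. In TNFR1-/- hosts, 0 members were called without array 2 of the mutant and 1 without array 1 of WT. In Myd88 flox/flox; Tie2-Cre hosts, 0 were called without array 1 or array 2 of the mutant or without array 2 of WT. In double-mutant hosts, 0 were called without array 1 of the mutant and 3 without array 2 of WT.

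Comparing the 3 mutant host types together with WT hosts, a contrast added after the values were seen, 7 members were called higher, and 5.31% of all genes were. Il13 rose by 2.51 ± 0.44 (adjusted p = 0.0101), Ccr3 by 2.39 ± 0.34 and Siglecf by 1.87 ± 0.45 (adjusted p = 0.0274), while Prg2 (1.22 ± 0.42, adjusted p = 0.0882) and Epx were not called. Without array 2 of WT hosts 4 members were called, and without other arrays 6 to 8. With a fit of only these 8 arrays 0 were called.

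Between mutant host types no member passed limma's test. Double-mutant minus TNFR1-/- hosts gave 0 members called and a median log2 difference of -0.16, with 1.33% of all genes called, and double-mutant minus Myd88 flox/flox; Tie2-Cre hosts gave 0 called and a median of 0.08, with 0.0847% of all genes called. The count at an unadjusted p under 0.05 was 0 in both. Both contrasts were added after the values were seen. For Il13 the 95% interval of the first ran from -1.56 to 0.76 log2 units and that of the second from -0.95 to 1.37, so differences of 1 log2 unit in either direction are within them. The departure of the double mutant from the sum of the 2 single effects, another added contrast, was -2.64 ± 0.76 for Il13 and -2.65 ± 0.60 for Ccr3, with adjusted p = 0.266 and 0.135 and 0 members called (0.0726% of all genes were), although 7 had an unadjusted p under 0.05. Without array 1 of the double mutant 3 were called.

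Taken as 4 arrays with each deletion against 4 without, the members were not called either. TNFR1 deletion in population A gave Il13 a log2 difference of 1.53 ± 0.38 (adjusted p = 0.11), again the largest rise of all genes in the comparison, with 0 members and 0.0424% of all genes called higher, and 8 members at an unadjusted p under 0.05. Without array 2 of the double mutant 7 members were called, and without array 1 of TNFR1-/- hosts 4. Myd88 deletion gave log2 differences up to 1.09 ± 0.35 for Serpinb2, with 0 members and 4.19% of all genes called higher, and 6 members at an unadjusted p under 0.05. Between 1 and 4 were called without array 1 of WT, array 2 of TNFR1-/- or array 2 of the double mutant.

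In population C, 0 members were called in any comparison of a mutant with WT hosts, where 0.0303% (TNFR1-/-), 0.00605% (Myd88 flox/flox; Tie2-Cre) and 0.176% (double mutant) of all genes were called higher. By unadjusted p under 0.05, Alox15 in the double mutant was the 1 member. Alox15 had 7.16 and 8.13 in C cells of double-mutant hosts, against 5.74 and 6.27 in those of WT hosts (a log2 difference of 1.64 ± 0.44, adjusted p = 0.229). Il13 stayed between 6.47 and 6.95 over the 8 C arrays. The difference of the double-mutant effect between A and C was 2.24 ± 0.60 for Ccr3 (unadjusted p = 0.00214, limma adjusted p = 0.249), 2.30 ± 0.76 for Il13 and 0.11 ± 0.63 for Alox15. With 0 members called in it (5 at an unadjusted p under 0.05) and 0.0121% of all genes called higher, an effect confined to A was not shown. Without array 2 of the double mutant in A, 3 members were called. The TNFR1 effect in A minus that in C had 0 members called (3 at an unadjusted p under 0.05) and 0.00605% of all genes higher, with 1 called without the same array. TNFR1 deletion in C, as 4 against 4 arrays, had 0 members called (1 at an unadjusted p under 0.05) and 0.472% of all genes higher.

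The members were then followed from array to array within population A. In each mutant host type the array with more Ccr3 had more of every other member. In TNFR1-/- hosts array 2 was higher than array 1 for all 9 members, by 0.3 to 1.5 log2 units. In Myd88 flox/flox; Tie2-Cre hosts array 1 was higher for all 9, by 0.44 to 1.62, and in double-mutant hosts array 1 was higher for all 9, by 0.65 to 2.36. In WT hosts array 1 was higher for 7 members, and Il13 (7.48 and 7.58) and Siglecg (6.88 and 7.03) were not among them. Replicate numbers are names and have no order, so the direction differs between hosts by label only. Over all 16524 genes tested, deviations of array 1 from host means correlated at r = -0.5 between TNFR1-/- and double-mutant hosts. This r was -0.324 between TNFR1-/- and Myd88 flox/flox; Tie2-Cre hosts and 0.375 between the latter and double-mutant hosts. The same pattern of arrays thus ran in part through all genes tested, and the share of genes moving with Ccr3 was not counted.

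Over the 8 A arrays, Pearson's r with Ccr3 was 0.993 for Alox15, 0.979 for Serpinb2, 0.972 for Il5ra, 0.957 for Siglecf, 0.939 for Il13, 0.933 for Siglecg, 0.832 for Prg2 and 0.204 for Epx. Spearman's rho was 1 for Alox15, between 0.952 and 0.976 for 6 others and 0.333 for Epx. The exact two-sided permutation p of r was 2.48e-05 for Alox15, the smallest that 8 arrays allow, 0.000248 for Il13, 0.0112 for Prg2 and 0.62 for Epx, over 8 relations in all. Because the members were chosen with values in view and the arrays come from 4 host types, these p-values measure association over the arrays and not evidence independent of the choice. The 2 arrays farthest from the median of Ccr3 were both of WT hosts. Over the 6 arrays of mutant hosts that remain, r was 0.989 for Alox15, 0.937 for Il13, 0.933 for Siglecg, 0.915 for Siglecf, 0.868 for Prg2 and 0.843 for Epx.

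With each array expressed as its deviation from the mean of its host type, which removes the differences between hosts, r with Ccr3 was 0.997 for Alox15, 0.984 for Siglecf, 0.963 for Il5ra, 0.948 for Epx and 0.942 for Serpinb2. It was 0.762 for Siglecg and 0.758 for Il13, the lowest of the 8. The 2 deviations of a host type mirror each other, so each r rests on 4 differences between replicates. Epx, whose arrays overlapped between mutant and WT hosts, thus followed Ccr3 within host types and not across them, while Il13 and Siglecg differed between mutant and WT hosts and did not follow Ccr3 between the WT arrays. Among the 28 pairs of members without Epx, r over the 8 arrays lay between 0.832 and 0.993, with a median of 0.949. In bulk RNA such as this, fewer cells of a type and less RNA per cell cannot be told apart.

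**Figure D3:**
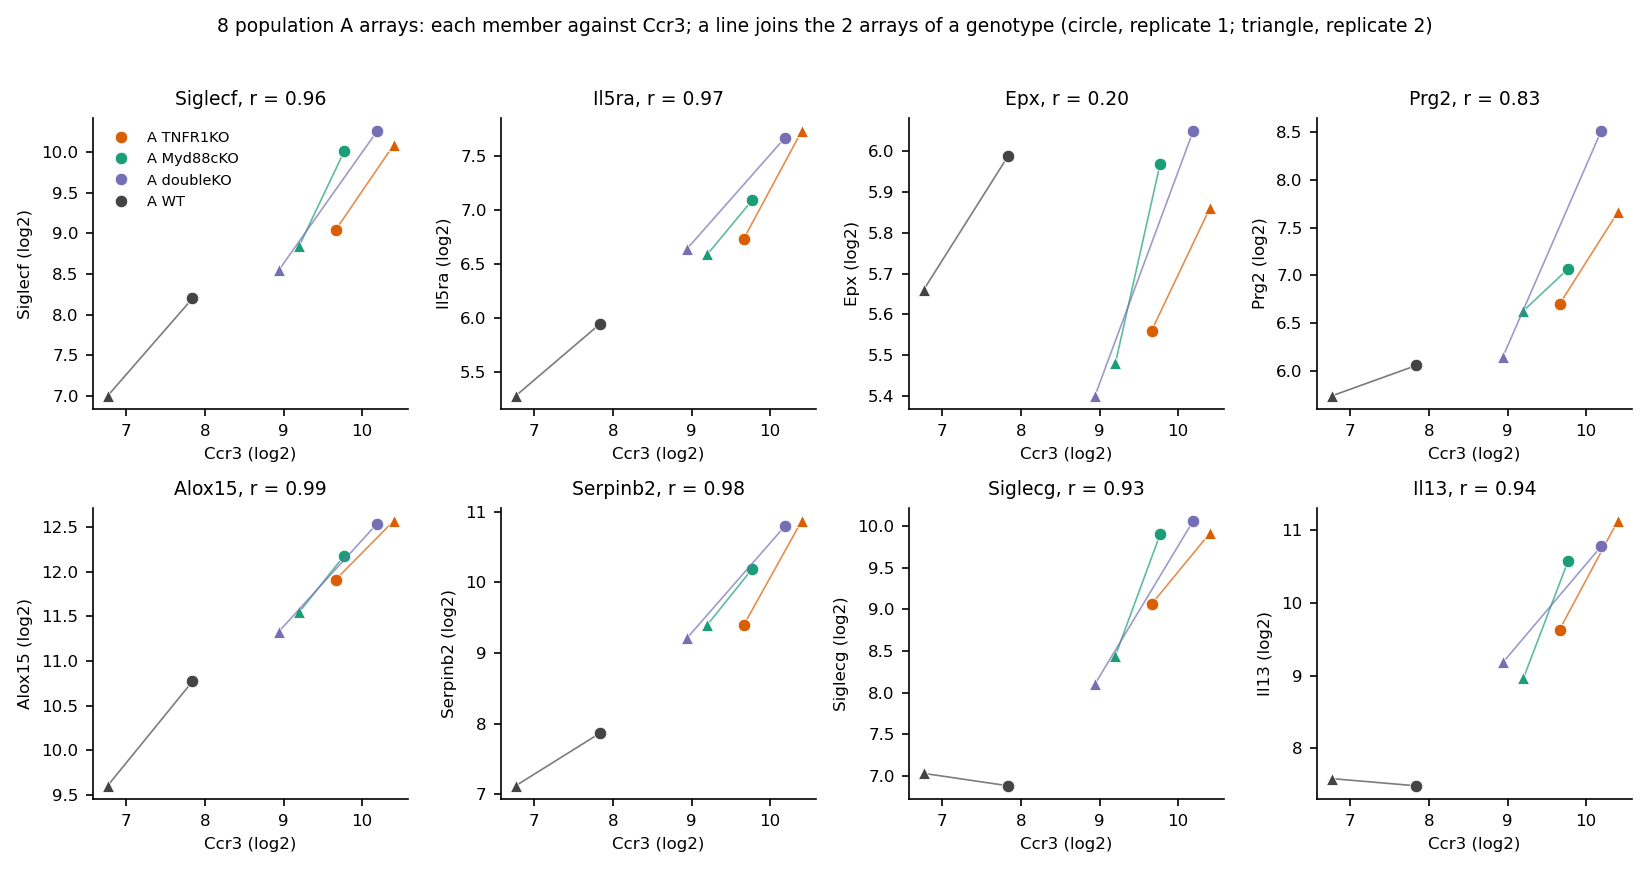
Log2 signal of each of 8 members against Ccr3 on the 8 population A arrays, coloured by host; a line joins the 2 arrays of a host type, circle for replicate 1 and triangle for replicate 2. The lines rise from left to right in each panel for the mutant hosts, and the WT line is nearly flat for Siglecg and Il13; in the panel of Epx (r = 0.20) the WT arrays are as high as the mutant ones.

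Other genes known from eosinophils were measured as a list of 16 genes, 12 of which were tested. Of these, 7 were called higher and 2 lower in A than in C, so the list did not move in a single direction. Among the higher ones were F5, which encodes coagulation factor V and is also known from resident peritoneal macrophages (4.60 ± 0.27), Adgre4, an adhesion receptor gene (3.15 ± 0.17), and Cebpe, a transcription factor gene of granulocyte maturation (1.74 ± 0.20). Ear6, a gene of the eosinophil ribonuclease family, had 6.24 and 7.67 in A cells of TNFR1-/- hosts, 8.34 and 6.34 in those of Myd88 flox/flox; Tie2-Cre hosts and 8.47 and 5.69 in those of double-mutant hosts, against 5.44 and 5.06 in WT hosts. Its higher array in each host type was the one with more Ccr3. Over mutant against WT hosts in A, 2 of the 12 genes were called higher (F5 2.09 ± 0.45 and Prg3, a second major basic protein gene, 0.86 ± 0.25) and 1 lower (Ffar1), and the median of the list was 0.56, against -0.01 for all genes.

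Il4, the gene beside Il13 in the type 2 cluster and often expressed with it, moved in the same arrays. It had 6.02 and 6.57 in A cells of TNFR1-/- hosts, 6.42 and 5.64 in those of Myd88 flox/flox; Tie2-Cre hosts and 6.59 and 5.53 in those of double-mutant hosts, against 4.96 and 5.1 in WT hosts, where it was at the lower bound. It was higher in A than in C by 1.13 ± 0.15 (adjusted p = 7.51e-05) and in mutant than in WT hosts by 1.098 ± 0.25 (adjusted p = 0.0213), and was not called in the single comparisons (adjusted p = 0.0597 to 0.0831). Il5, the third gene of the cluster and the ligand of the Il5ra product, lay between 4.76 and 5.26 in all A arrays, at the lower bound. Of the 9 type 2 ligands and growth factors listed, 7 were tested and 2 of them (Il13 and Il4) were called higher in mutant hosts.

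Receptor genes of these cytokines were read beside them. Il4ra, the receptor chain shared by interleukins 4 and 13, was lower in A than in C (-0.80 ± 0.14, adjusted p = 0.000516) and differed by 0.08 ± 0.22 between mutant and WT hosts in A. Of 10 tested genes for type 2 cytokine receptors and STAT signalling, 0 were called in mutant against WT hosts (limma, 2 at an unadjusted p under 0.05), and Stat6 had 0.39 ± 0.17. Of the eotaxins and other CCR3 ligands, Ccl8 was called higher in mutant hosts (2.25 ± 0.34, adjusted p = 0.00592), 1 of 6 tested, and Ccl24 had 0.95 ± 0.42 (adjusted p = 0.165). Among 15 genes of alternative activation, 4 were called higher in A of mutant hosts, led by Retnla (2.69 ± 0.47), Mrc1 (1.55 ± 0.31) and Socs2 (2.42 ± 0.52). Retnla was also called higher in C of double-mutant hosts (4.05 ± 0.58, adjusted p = 0.00604).

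Relatives of the members by protein family, and partners of those proteins, moved unevenly. Of 6 tested lipoxygenase pathway genes, 2 were called higher in mutant hosts, Lta4h (1.36 ± 0.26), which encodes leukotriene A4 hydrolase, and Alox12e (1.27 ± 0.33). In the Siglec list, 1 of 7 tested genes was called, Cd24a (1.81 ± 0.34), which encodes a ligand of the Siglecg product. Of 11 tested clade B serpin and plasminogen genes besides Serpinb2, 0 were called by limma (3 at an unadjusted p under 0.05, smallest adjusted p = 0.131, Serpinb9).

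The genes whose values were most like those of 4 members over the 16 sorted arrays were ranked by Pearson's r among genes tested, which share the difference between populations A and C. For Ccr3 these were Gapt (r = 0.987), F5 (0.984), Pglyrp1 (0.982), Syne1 (0.981) and Tmem71 (0.980). For Alox15 they were Cd24a (0.985), F5, Gapt, Pglyrp1 and Retnlg. For Serpinb2 they were Klrb1f (0.988), P2rx1, Adam19, Ctse and Tmem71, and for Il13 they were Enah (0.991), Bank1 (0.990), Adam19 (0.985), Rnf125 (0.984) and Il4 (0.983).

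Markers of other cells were read in the same A arrays. Of 13 tested mature macrophage genes, 11 were called lower and 1 higher in A than in C, where 21.3% of all genes were lower. Within A they also moved with the host: in Myd88 flox/flox; Tie2-Cre against WT hosts 7 were called higher (C1qa 2.30 ± 0.25 and Ms4a7 among them) and 1 lower (Cx3cr1), and over all mutant against WT hosts 4 were called higher and 1 lower. For TNFR1 deletion as 4 against 4 arrays 3 were called lower and 0 higher, and 13 of 13 had an unadjusted p under 0.05. Among these 13, Adgre1 had a higher and not a lower signal with the deletion. The list mean was 7.47 to 9.88 in mutant and 8.10 to 8.54 in WT hosts. Of 11 tested monocyte genes, 4 were called higher in A than in C (Ly6c2, which encodes the antigen gated in, 3.20 ± 0.18, and Plac8 among them) and 2 lower, and 1 was called lower in mutant against WT hosts (Hp -1.23 ± 0.35). Their mean was 8.22 to 9.12 in mutant and 8.82 to 9.01 in WT hosts.

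Granulocyte genes were mixed. Of 19 tested neutrophil genes, 11 were called higher and 0 lower in A than in C, and in mutant against WT hosts in A 2 were called higher (Retnlg 1.57 ± 0.28 and Mmp9) and 4 lower (Elane -0.79 ± 0.12, Fcnb -0.62 ± 0.10 and Ltf -0.84 ± 0.15 and Lcn2). The mean over the 20 neutrophil genes on the chip was 6.24 to 6.50 in mutant and 6.59 to 6.61 in WT hosts. Over the 8 A arrays, r with Ccr3 was above 0 for 7 and below 0 for 13 of the 20 neutrophil genes, with a median of -0.33 and a range from -0.87 (Fcnb) to 0.95 (Mmp9).

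Ly6g, which encodes the antigen gated out, lay between 5.06 and 6.88 in mutant and at 5.27 and 5.54 in WT hosts, and was higher in A than in C by 1.16 ± 0.22. Its r with Ccr3 was 0.68 over the 8 arrays and 0.98 over the 6 of mutant hosts, and in 3 of 3 mutant host types its higher array was the one with more Ccr3. The same held in those hosts for Retnlg (r = 0.93 over the 8 arrays), Mmp9 and Cxcr2 (0.21). Csf3r, the receptor of granulocyte colony-stimulating factor, ran the other way in each of them (r = -0.82). S100a8, one of the most abundant transcripts of neutrophils, lay between 4.24 and 5.71 in A, around the lower bound (r = -0.28), and S100a9 between 5.93 and 6.89 (r = 0.06).

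**Figure D4:**
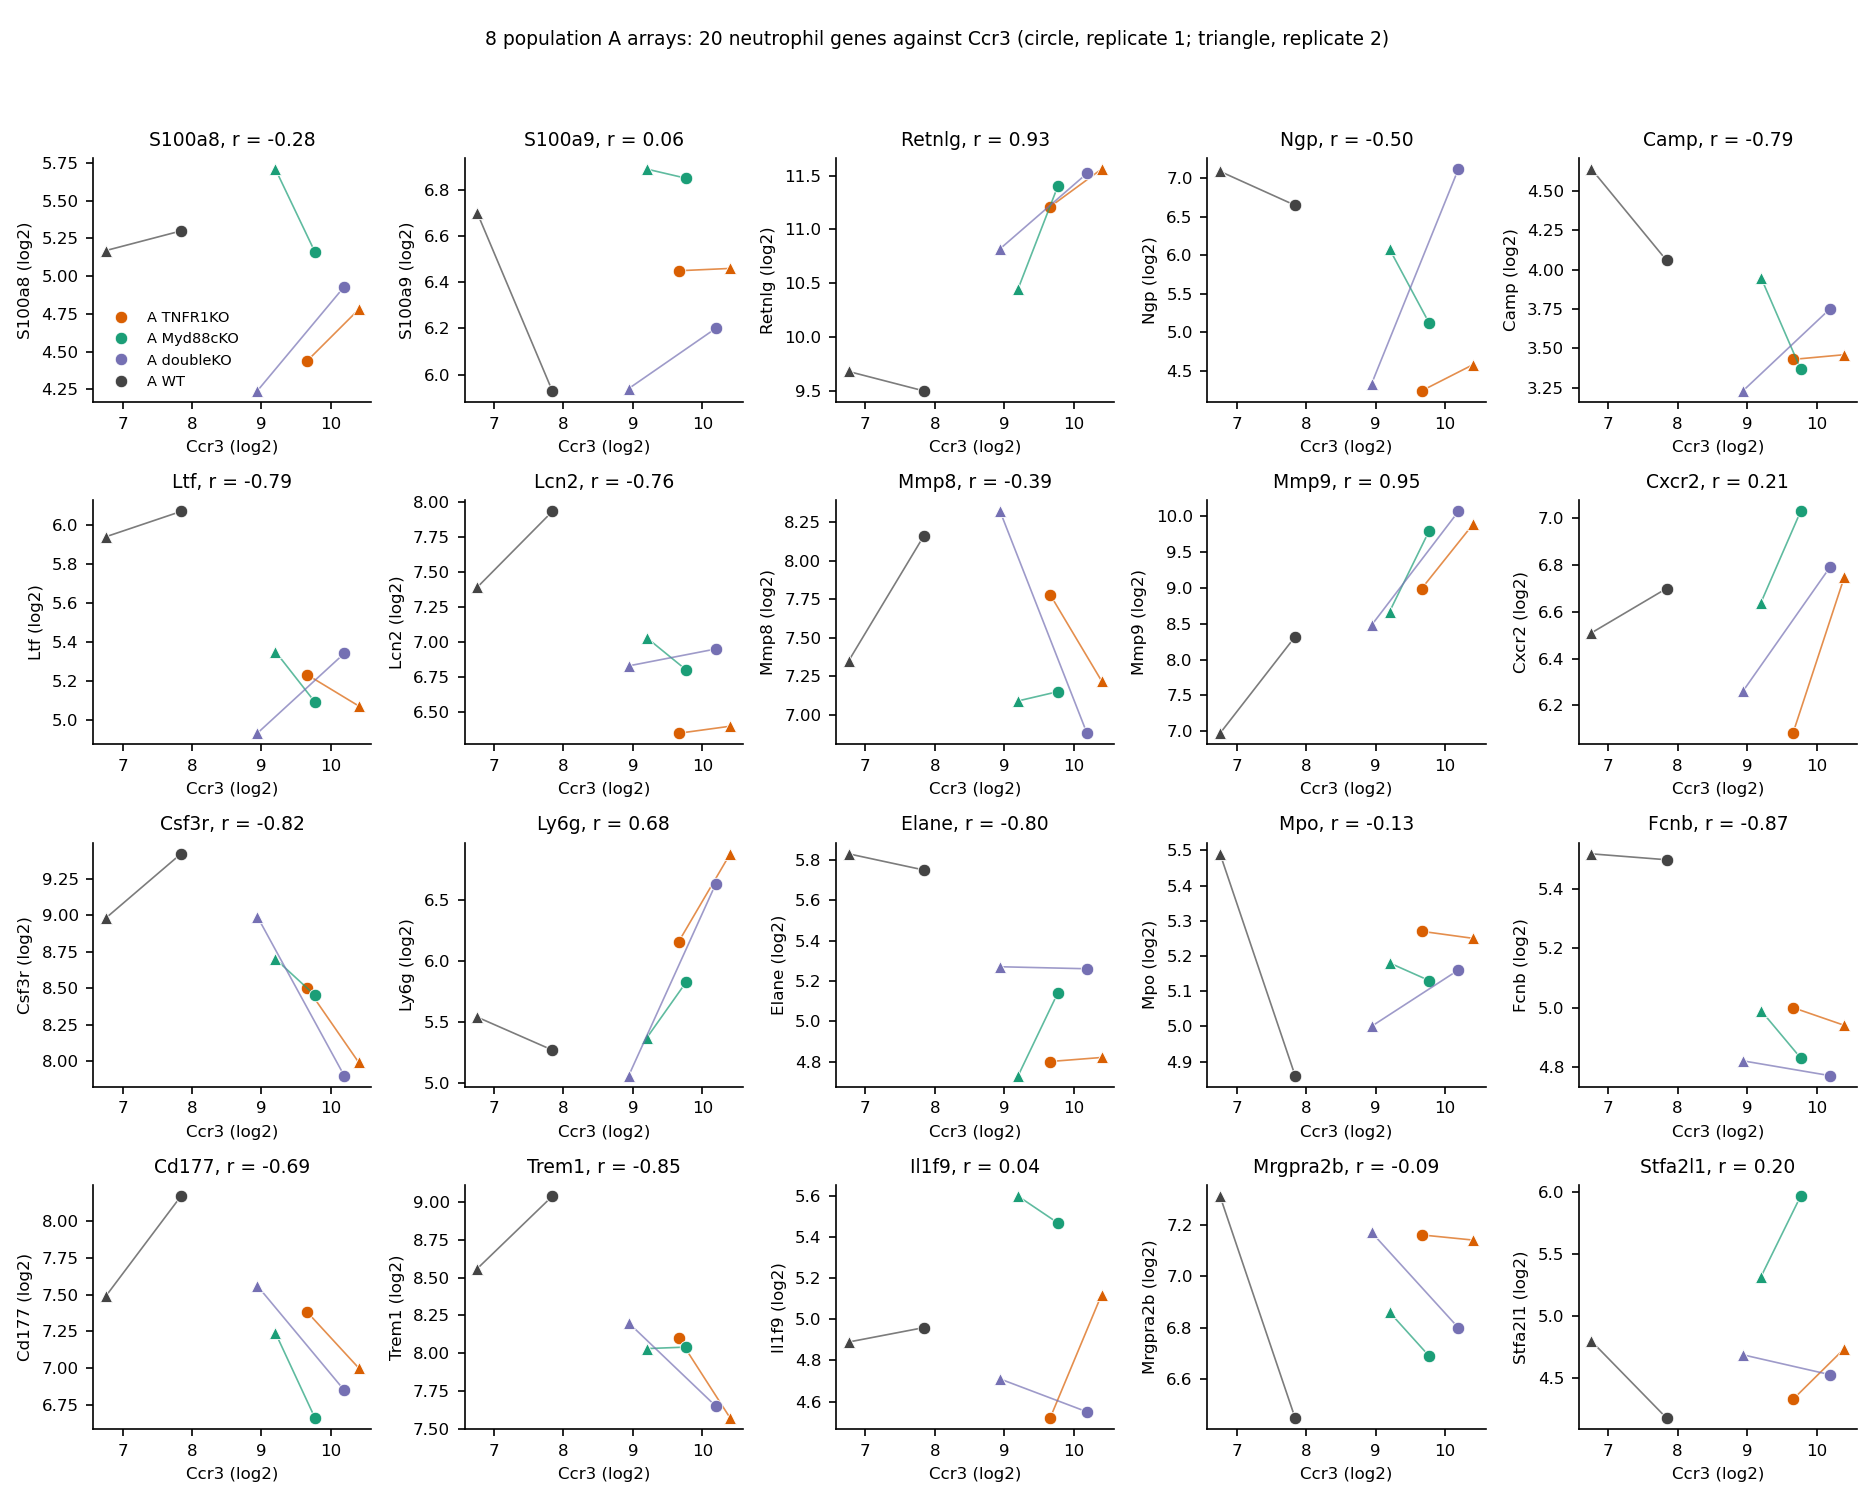
Log2 signal of the 20 neutrophil genes on the chip against Ccr3 on the 8 population A arrays, coloured by host; a line joins the 2 arrays of a host type, circle for replicate 1 and triangle for replicate 2. Retnlg, Mmp9 and Ly6g increase with Ccr3 in the mutant hosts, Csf3r and Cd177 decrease, and S100a8 stays between 4.24 and 5.71.

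Of 7 tested mast cell and basophil genes, 5 were called higher in A than in C and 2 in mutant against WT hosts (Il4 and Hdc, 1.55 ± 0.43), and the mean over the 14 genes was 4.94 to 5.25 in mutant and 4.88 to 5.01 in WT hosts. Among the defining markers, Cpa3, which encodes mast cell carboxypeptidase, was above the lower bound on all 8 A arrays. It had 6.06 and 5.88 in TNFR1-/- hosts, 5.99 and 6.9 in Myd88 flox/flox; Tie2-Cre hosts and 7.4 and 7.2 in double-mutant hosts, against 6.46 and 6.24 in WT hosts (double mutant 0.95 ± 0.29, adjusted p = 0.064), and was higher in A than in C by 0.76 ± 0.14. Fcer1a (3.22 to 3.67) was below that bound, and Mcpt8 (4.66 to 5.32), Ms4a2 (4.97 to 5.32) and Kit (4.84 to 5.74) were around it. T lymphocyte and EG7 line genes differed between the mutant hosts: 2 of 10 were called lower in TNFR1-/- hosts (Cd3e -1.16 ± 0.23 and Cd3g -1.11 ± 0.23) and 5 higher in double-mutant hosts (Cd3g 1.75 ± 0.23, Cd3e 1.35 ± 0.23 and Lat 1.19 ± 0.25 first), with list means of 5.84 to 7.11 in mutant and 6.35 to 6.48 in WT hosts. Of 9 tested innate lymphoid type 2 and Th2 cell genes, Il13 alone was called in the pooled comparison of mutant with WT hosts. Il7r differed by host type and was called higher in Myd88 flox/flox; Tie2-Cre hosts (2.05 ± 0.33, limma adjusted p = 0.00829). It was not called in TNFR1-/- hosts (-0.955 ± 0.33, adjusted p = 0.146) or in double-mutant hosts (0.99 ± 0.33, adjusted p = 0.0867). Of 6 tested B lymphocyte genes 0 were called by limma in the same pooled comparison (1 at an unadjusted p under 0.05, Blk, adjusted p = 0.181). Single host types are not given for this list, and its genes also differed between mutant hosts. Cd22 was lower in double-mutant than in Myd88 flox/flox; Tie2-Cre hosts (-1.195 ± 0.25, limma adjusted p = 0.13). The part of these cells in the members' differences was not tested.

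In the bead-enriched cells of the tumour models, 7 members were tested, and Il5ra and Epx were under the lower bound (3.44 to 3.48) on every array. Alox15 had 8.73, 7.16 and 7.87 in neuroblastoma, against 5.27, 4.57 and 6.96 in EG7 thymoma. The groups did not overlap, which held in this direction for 1 of 7 members and 19.1% of all genes tested, and the log2 difference was 2.32 ± 0.66 (limma adjusted p = 0.0638). Siglecf ran the other way, with 4.39, 6.71 and 5.46 in neuroblastoma and 6.86, 6.69 and 7.18 in EG7 thymoma (-1.39 ± 0.55, adjusted p = 0.144). Ccr3 had 4.96, 5.46 and 4.17 against 3.48, 3.2 and 4.48 (1.14 ± 0.44, adjusted p = 0.136), so its groups overlapped.

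No member was called between the tumour models, where 14.7% of all genes were called (1850 of 12577); 2 members, Alox15 and Ccr3, had an unadjusted p under 0.05 with a higher and Siglecf with a lower signal. Without array 2 of neuroblastoma 2 members were called, and without array 3 of EG7 thymoma 1. Serpinb2 had 8.82, 9.38 and 8.53 against 7.5, 8.86 and 8.97, and Siglecg 4.56, 5.99 and 5.16 against 5.05, 5.38 and 5.31. Il13 (3.81, 3.84 and 3.96 against 4.12, 4.24 and 4.05) and Prg2 (3.2, 4.05 and 3.68 against 3.62, 3.27 and 3.89) were near the lower bound. The 3 values of Il13 in neuroblastoma lay below those in EG7 thymoma (-0.27 ± 0.14, adjusted p = 0.257), as held for 1 of 7 members and 17% of all genes tested. Beside them, the eotaxin gene Ccl11 was higher in neuroblastoma by 2.61 ± 0.22 (adjusted p = 0.00106) and Ccl24 by 2.36 ± 0.38 (adjusted p = 0.00955). Of the other genes of that list, Ccl5 (-1.13), Ccl8 (-0.757) and Ccl28 (-0.103) were lower and Ccl7 (0.6) higher, none of them called. Of 12 resident peritoneal macrophage genes, 4 were called higher, Timd4 (4.40 ± 0.54) and Gata6 among them. Cd9, of the same list, was called lower (-1.28 ± 0.16, limma adjusted p = 0.00387). Gata6 had 6.56, 4.92 and 6.14 in neuroblastoma against 3.38, 3.21 and 2.99 in EG7 thymoma. The part of resident peritoneal macrophages in the signal of Alox15 was not tested.

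In EG7 thymomas of Myd88-/- recipients, 7 of the 8 members tested had a lower mean than in WT recipients and none passed the test. Serpinb2 had 7.14, 7.59, 7.37, 6.25 and 7.5 in Myd88-/- recipients, against 8.63, 8.36, 8.67, 7.39 and 8.31 in WT recipients. The lowest WT array fell within the Myd88-/- range, the other 4 lay above it, and the log2 difference was -1.102 ± 0.27 (limma adjusted p = 0.078). Alox15 had 6.22, 6.77, 4.86, 4.73 and 4.76 against 6.88, 6.86, 7.07, 5.18 and 6.24 (-0.98 ± 0.44, adjusted p = 0.391). Of 8 members tested 0 were called, where 1.44% of all genes were; 2, Serpinb2 and Alox15, had an unadjusted p under 0.05. Serpinb2 was called without array 4 of the WT recipients.

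The remaining members overlapped between recipients or lay near the lower bound. Ccr3 had 3.38, 4.09, 2.9, 3.12 and 3.05 in Myd88-/- recipients against 3.7, 3.88, 4.08, 3.09 and 3.63 in WT recipients (-0.37 ± 0.22), and Siglecf 6.92, 7.63, 6.28, 6.43 and 6.35 against 7.24, 7.27, 7.61, 6.31 and 6.97 (-0.36 ± 0.27). Siglecg differed by -0.41 ± 0.21, Prg2 by -0.27 ± 0.19, Il13 by -0.09 ± 0.10 and Il5ra by 0.10 ± 0.07, and Epx was under the lower bound on all 10 arrays. The members also shared part of their order over the arrays. The 4 arrays lowest in Ccr3, 3 of Myd88-/- recipients (arrays 3, 4 and 5) and 1 of WT recipients (array 4), were also the 4 lowest in Siglecf, Prg2 and Alox15. They included 3 of the 4 lowest in Serpinb2 and in Siglecg, 2 in Il13 and 0 in Il5ra. The values of Alox15 fell into 2 sets of arrays, so no pooled correlation is given.

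**Figure D5:**
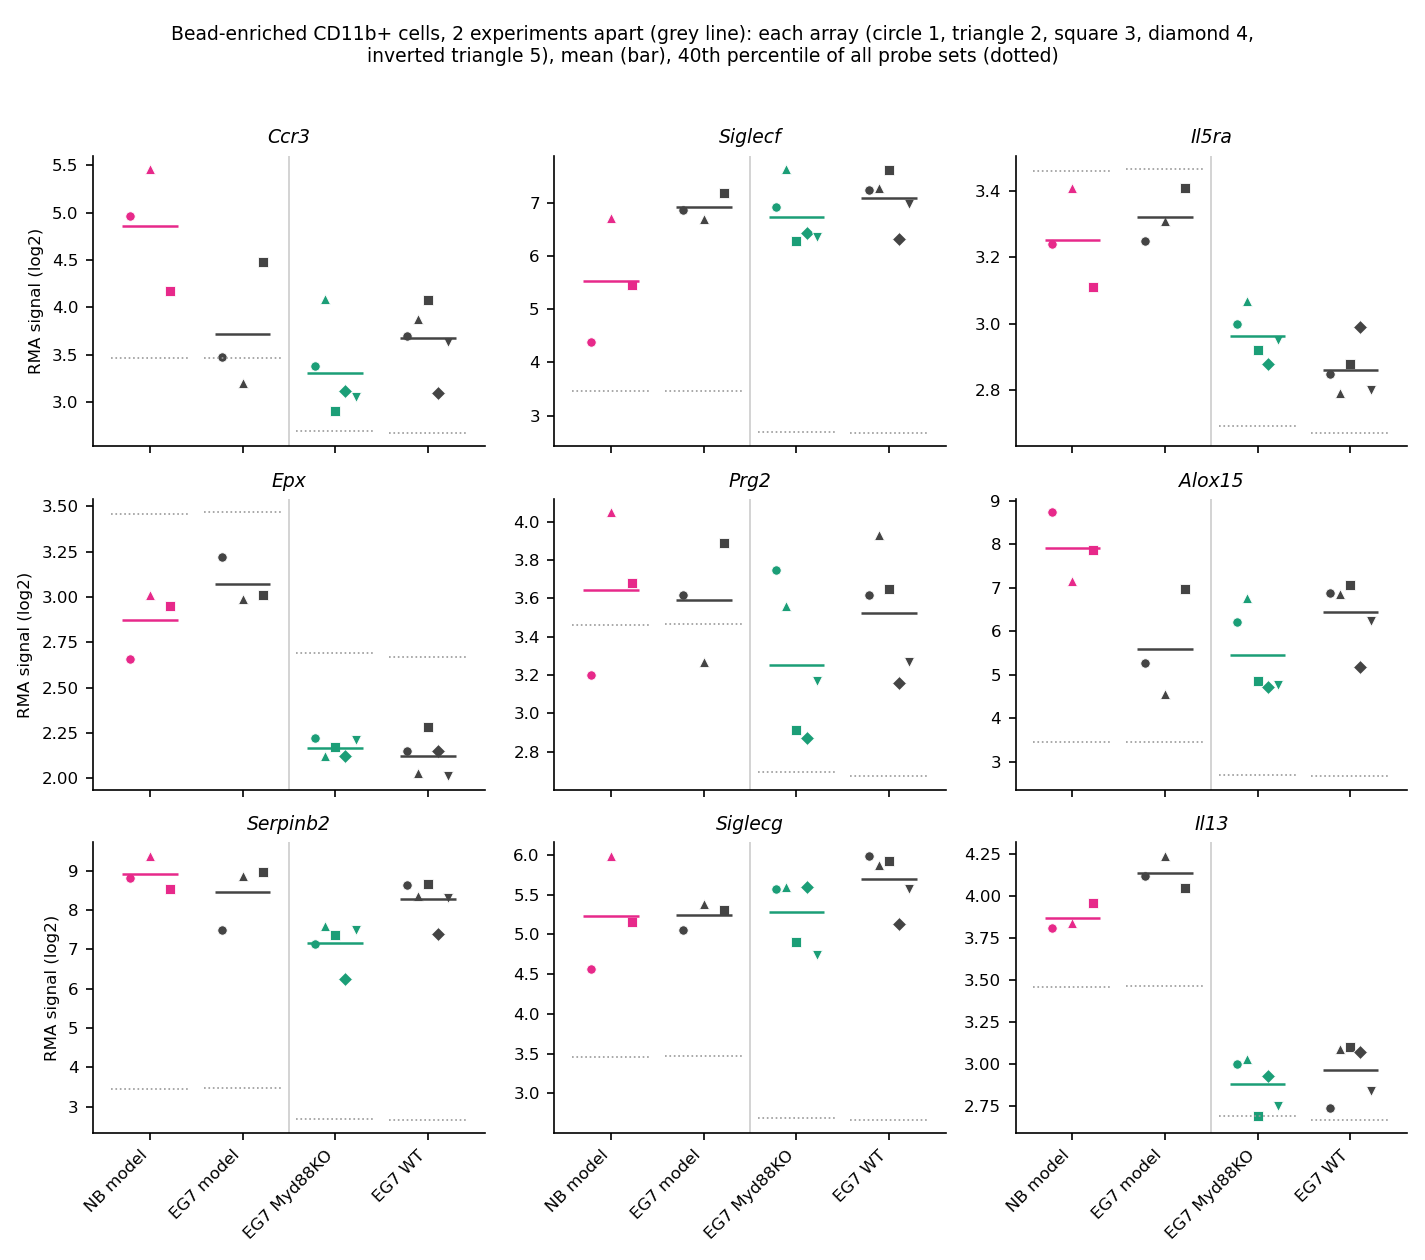
Log2 RMA signal of each member in bead-enriched CD11b+ cells, with the tumour models left and the Myd88 experiment right of the grey line, which were fitted apart; symbols are arrays, bars group means and dotted lines the 40th percentile of all probe sets. Epx lies below the dotted line in every group, and Alox15 and Il13 do not overlap between neuroblastoma and EG7 thymoma, in opposite directions.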

How the data were processed

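RNA of 32 samples, 100 ng per array, was hybridised to Affymetrix arrays, 16 of the HT_MG-430_PM type for bead-enriched cells and 16 of the Mouse Gene 2.0 ST type for sorted cells. Per the submitters' processing notes, RMA was run with Affymetrix Expression Console 1.1, and what was deposited is its log2 output. RMA puts arrays on one distribution, so a change in total RNA per cell is not measured. The number of arrays limits the precision.

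Genes were named from single-symbol probe sets of the platform annotation, and the probe set of highest mean was kept. Genes entered the tests when their signal passed the array's 40th percentile in a number of arrays no lower than the smallest group's size. Each experiment was fitted apart with limma 3.58.1 in R 4.3.3 (lmFit and eBayes), adjusting p-values by Benjamini-Hochberg across the 12577, 11915 and 16524 genes that entered and a threshold of 0.05. Fits were tested on simulated data. Correlations used exact permutation in scipy 1.17.1. Members and lists were chosen with earlier results of these data known, and the named genes follow the member list and those lists. Glioma samples named in the design text were not analysed here.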

Additional observations from a re-analysis of the deposited data

Results flagged for a closer look

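Serpinb2 on array 4 of the EG7 thymomas in WT recipients had a log2 signal of 7.39, far below the other 4 arrays of its group, which lay between 8.31 and 8.67. It was the 1 such value among 18 combinations of group and member tested, and chance alone flags about 1 in 20. The same array was among the 4 lowest in Ccr3, Siglecf, Prg2 and Alox15. Without it, Serpinb2 was called lower in Myd88-/- than in WT recipients.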

How the results depend on the processing

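The direction of each called member difference was kept under every alternative run, while the number of members called depended on the arrays. With a fit of only the compared arrays, 0 members were called in A cells of TNFR1-/- hosts, of Myd88 flox/flox; Tie2-Cre hosts, of double-mutant hosts and of the 3 together, against 4, 4, 6 and 7 with all sorted arrays in the fit. The same fit called 1 in C cells of double-mutant hosts and 1 for TNFR1 deletion in C (0 with all arrays). Quantile normalization on top gave 2 for Myd88 flox/flox; Tie2-Cre hosts in A. For Myd88-/- against WT recipients, eBayes with a trend gave 1 and the replicate block gave 1, against 0. Replicate numbers were not used as pairs in the main fits, and whether they mark pairs was not settled. Same-numbered deviations correlated above 0.1 in 1 of 3, 3 of 5 and 8 of 28 pairs. In the sorted arrays r ran from -0.5 to 0.375.

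Leaving out 1 array at a time gave 0 to 6 members called for TNFR1-/- hosts in A, 0 to 5 for Myd88 flox/flox; Tie2-Cre hosts, 0 to 8 for double-mutant hosts and 4 to 8 for the 3 together. For A against C it gave 2 to 4 in WT hosts and 2 to 7 in Myd88 flox/flox; Tie2-Cre hosts. It gave 0 to 7 for TNFR1 deletion in A, 0 to 4 for Myd88 deletion in A, 0 to 2 for the tumour models, 0 to 1 for Myd88-/- recipients, 0 to 3 for the departure from additivity, 0 to 3 for the double-mutant effect in A minus C and 0 to 1 for the TNFR1 effect in A minus C. Over all 24 comparisons and all alternatives, 129 of 2928 member differences had the opposite sign, 17 and 19 of them between the double mutant and the single mutants, and 0 of the 129 were called. For the comparisons of the tumour models and of A cells with WT hosts, over the arrays left out, the differences between neuroblastoma and EG7 thymoma ran from -0.1533 to 0.2717 for Prg2, from -0.005 to 0.73 for Serpinb2 and from -0.3867 to 0.3283 for Siglecg. In A, Epx ran from -0.28 to 0.05 in TNFR1-/- hosts, from -0.345 to 0.145 in Myd88 flox/flox; Tie2-Cre hosts, from -0.425 to 0.225 in double-mutant hosts and from -0.27 to 0.06 over all mutant hosts. The cause was not tested.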
